A study of Mus musculus with 13 samples.

Results

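Anti-STAT3 peaks were compared between IgM+ and IgG1+ wild-type (WT) mouse B cells that had received IL-4 as their last cytokine. The data are 4 deposited peak lists, 2 libraries from IgM+ and 2 from IgG1+ cells, out of 12 lists from antibody libraries and 13 samples in the series. The lists were chosen by genotype, cytokine and isotype in the labels, and every peak on chromosomes 1 to 19, X and Y was used. Peaks sharing 1 bp or more were merged, which gave 3420 regions, where all 12 lists gave 11227. Naive splenic B cells had spent 96 h with IL-4 at 12.5 ng/mL plus anti-CD40 at 1 µg/mL before they were sorted by isotype. Then 400000 sorted cells received both agents again at the same doses for 1 h. STAT3 was then mapped by CUT&RUN, which uses an antibody to bring a nuclease to bound DNA and sequences the fragments that are cut free. The other lists used beside these are 4 from WT cells given anti-CD40 and IL-21 (10 ng/mL) for the last hour, 2 of each isotype, and 4 from STAT3 knockout (KO) cells, 1 for each isotype and cytokine. All of these cells had the same 96 h with anti-CD40 and IL-4. The labels give no deleting allele or Cre driver for the KO, nor the animal behind each replicate, so the spread between libraries may be technical.

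IgM is the antigen receptor of B cells that have not switched class, and CD40 signals together with IL-4 lead mouse B cells to switch to IgG1. STAT3 is a transcription factor that cytokine receptors activate through JAK kinases. STAT3 is the main STAT of IL-21 and STAT6 that of IL-4, and the cells of these 4 lists were given IL-4 and not IL-21. STAT dimers bind palindromes of TTC and GAA, with a spacer of NNN for STAT3 (TTCNNNGAA) and often NNNN for STAT6. Peaks in KO cells show where the assay gave signal in cells labelled as lacking STAT3, although the lists hold no measure of the deletion.

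The sequences of 3 promoters are examples of regions at gene ends found in more than 1 list, and do not stand for all such regions. Of the 89 regions found in at least 2 lists, 26 had no protein-coding gene within 50000 bp. Thg1l, which encodes the enzyme that adds guanosine to histidine tRNA, had a peak in all 4 lists and no KO list. Icam1, which encodes an adhesion molecule of activated lymphocytes, had one in both IgM lists, neither IgG1 list and no KO list. Klhl36, a kelch-like gene, had one in both IgM lists, neither IgG1 list and 3 KO lists. The windows run from 250 bases before to 50 bases after an annotated start on RefSeq GRCm38.p6, the assembly behind mm10, written 5′ to 3′ on the gene's strand. They lie at chr11:45955139-45955438 (minus strand) for Thg1l, chr9:21015690-21015989 (plus strand) for Icam1 and chr8:119862055-119862354 (plus strand) for Klhl36. Capitals mark a match to TTCNNNGAA.
Thg1l: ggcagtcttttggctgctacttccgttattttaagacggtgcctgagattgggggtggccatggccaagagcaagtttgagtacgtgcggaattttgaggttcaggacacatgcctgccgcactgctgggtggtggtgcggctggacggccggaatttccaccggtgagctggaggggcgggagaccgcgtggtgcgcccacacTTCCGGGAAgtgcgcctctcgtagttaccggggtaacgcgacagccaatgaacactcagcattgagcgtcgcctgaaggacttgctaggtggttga
Icam1: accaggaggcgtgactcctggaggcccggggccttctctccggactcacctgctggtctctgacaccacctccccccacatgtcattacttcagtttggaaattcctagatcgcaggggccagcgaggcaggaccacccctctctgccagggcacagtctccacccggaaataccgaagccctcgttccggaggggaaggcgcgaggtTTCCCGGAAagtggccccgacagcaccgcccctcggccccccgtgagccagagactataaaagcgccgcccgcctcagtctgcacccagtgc
Klhl36: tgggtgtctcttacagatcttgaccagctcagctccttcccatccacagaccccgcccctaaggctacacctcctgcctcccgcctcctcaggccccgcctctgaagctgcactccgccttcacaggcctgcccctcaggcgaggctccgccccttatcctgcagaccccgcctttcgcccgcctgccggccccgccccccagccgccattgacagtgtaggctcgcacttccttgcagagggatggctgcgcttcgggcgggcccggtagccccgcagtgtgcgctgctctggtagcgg
The Thg1l and Icam1 windows shown each held 1 match, and the Klhl36 window held none. Thg1l has a second window in the table, chr11:45955454-45955753, which shares 76 bp with the region and held 0 matches. The window shown holds the strongest summit. Both matches were also of the stricter form TTCCNGGAA, which was searched only after these windows had been seen. The match lay 95 bp from the strongest summit at Thg1l and 147 bp from it at Icam1.

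A further 3 windows overlapped a recurring region without a KO peak and held TTCCNGGAA inside it. They belong to Fastk (a kinase named for its activation by Fas), Crebrf (a regulator of the CREB3 factor) and Cpsf7 (a subunit of the pre-mRNA cleavage factor). They are shown with 30 bases on either side, or up to the window's end, at chr5:24445258-24445326 (minus strand), chr17:26715632-26715699 (plus strand) and chr19:10525103-10525171 (plus strand), with TTCNNNGAA in capitals. The matches lay 36, 652 and 197 bp from the strongest summit of their region.
Fastk: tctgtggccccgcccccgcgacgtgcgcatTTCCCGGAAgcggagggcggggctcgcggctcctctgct
Crebrf: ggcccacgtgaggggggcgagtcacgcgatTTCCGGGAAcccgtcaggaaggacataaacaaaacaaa
Cpsf7: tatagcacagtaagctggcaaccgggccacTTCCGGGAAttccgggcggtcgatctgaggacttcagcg
Among recurring regions with no KO peak, 17 overlapped a promoter window in the table, and 5 of them held TTCCNGGAA within the region (Thg1l, Icam1, Fastk, Crebrf and Cpsf7). With the looser TTCNNNGAA there were 6, the other being Tial1, an RNA-binding protein. Among recurring regions with a KO peak, 23 overlapped a window and 0 held either form within the region. Some windows held TTCNNNGAA outside the region, at Map2k4 and Ube2d3 with a KO peak and at Ubb and Brd2 without one. Each motif is its own reverse complement, so 1 search covers both strands, and every TTCCNGGAA is also a TTCNNNGAA. Of all 32851 windows in the table, 8.30% held TTCNNNGAA, 1.15% held TTCCNGGAA and 6.95% held the STAT6 form, TTC and GAA with NNNN between them. These shares count a match anywhere in a window, while the counts by region need it inside the region. The STAT6 form lay inside 0 of the 17 regions without a KO peak and 1 of the 23 with one (Ppp2r3a). Counting only windows that contained the strongest summit, 3 of 9 without a KO peak (Thg1l, Icam1 and Fastk) and 0 of 19 with one held TTCCNGGAA. For TTCNNNGAA, searched first, the counts were 3 of 9 without a KO peak and 1 of 19 with one (Map2k4, a kinase upstream of JNK). Of 235 windows with the summit of a region found in 1 list, 21 (8.94%) held TTCNNNGAA and 6 (2.55%) held TTCCNGGAA. A match describes letters in these windows and not a site, and windows of recurring regions that the table lacks (Lsm4 among them) were not searched.

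The IgM lists were longer than the IgG1 lists, with a smaller difference among peaks of high fold. They held 1455 and 853 peaks for IgM against 651 and 623 for IgG1. The mean log2 number differed by 0.81, or 1.75-fold, and the 2 IgM lists differed from each other as well. Without the first IgM list the difference was 0.42. The groups did not overlap, and the two-sided exact permutation test gave p = 0.333, the smallest that 2 against 2 libraries allow. Peaks with a fold enrichment of at least 5 numbered 289 and 181 in the IgM lists and 181 and 224 in the IgG1 lists, which overlap (log2 difference 0.18, exact permutation p = 1). Fold enrichment is the authors' ratio of the signal at a peak's summit to the local background of that library. The median fold was 4.29 and 4.22 in the IgM lists and 4.41 and 4.78 in the IgG1 lists. The lists carry no depth. Taken as a Poisson test, fold and −log10 p were solved for a whole fragment count and a background, which worked for 99.2% to 100% of peaks with a −log10 p under 20 (to within 0.001 of the −log10 p). By this reading the lowest background was 2.03 and 2.32 fragments in the IgM libraries and 2.17 and 1.72 in the IgG1 libraries. The smallest pileup called was 10 or 11 fragments. A region without a peak was not called, which does not show that binding was absent there. The lists give no expression, so cell type and sort could not be checked, and none of 7 defining B cell genes can be read as expressed or not from these lists: 1 (Ebf1) had a region nearest to it and 6, Pax5 and Ms4a1 among them, had none.

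Few regions recurred, and most of those that did were shared across isotypes. More combinations of 2 or more lists span both isotypes than lie within 1. In all, 3331 of the 3420 regions were found in 1 list (1375 and 786 in the IgM lists, 595 and 575 in the IgG1 lists), and 89 in at least 2. Of the 89, 23 had a peak in all 4 lists, 18 in 3 lists, 19 in both IgM lists and neither IgG1 list, 3 in both IgG1 lists and neither IgM list, and 26 in 1 list of each isotype. The 19 are 0.556% of all regions and the 3 are 0.0877%. Both IgM lists shared 57 regions and both IgG1 lists 29. The excess on the IgM side was smaller when each list was taken to the 623 peaks of highest −log10 p, the length of the shortest list. Then 12 regions were in both IgM lists only and 3 in both IgG1 lists only, and the regions in all 4 lists numbered 22. With the 300 top peaks of each list, a number chosen after these counts were seen, they were 5, 3 and 21. The first IgM and first IgG1 lists then shared 12 regions with no other list, more than either isotype's own pair.

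**Figure D1:**
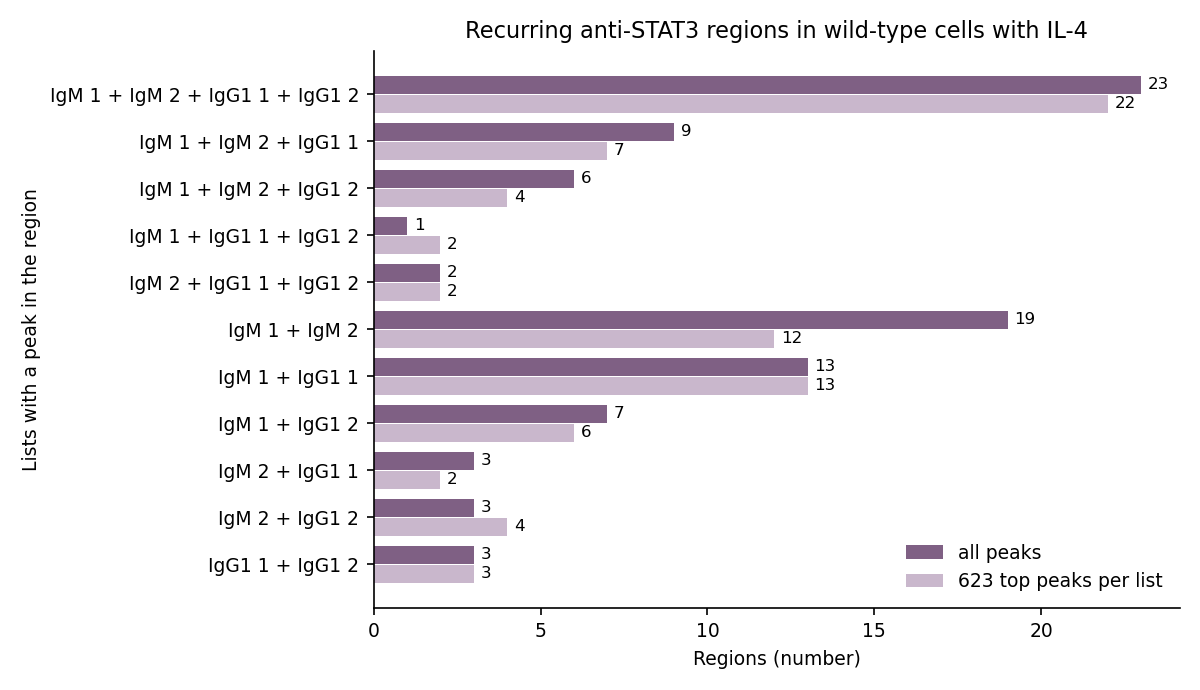
Number of regions (x axis) for each combination of 2 or more lists with a peak in the region (y axis), for all peaks (dark bars) and for the 623 top peaks of each list by −log10 p (light bars). Combinations within an isotype fall to 12 for IgM and stay at 3 for IgG1 at equal numbers, and the 4-list bar is 23 and 22.

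The share of peaks that overlapped between lists had a like size within and across isotypes. Every pair counts the 23 regions found in all 4 lists, and 20 of those had a peak in the other 8 lists too. With regions that had a KO IL-4 peak left out, the IgM lists shared 19 regions and the IgG1 lists 4. The pairs across isotypes were not recounted that way, but regions shared across isotypes remained as well. Among recurring regions with no peak in any KO list, 2 were in all 4 lists and 8 in 3 lists. A further 12 were in 1 list of each isotype (4 pairs pooled), 6 in both IgM lists only and 0 in both IgG1 lists only. Over the peaks of both lists, 5.03% overlapped between the IgM lists (3.92% of the first list and 6.92% of the second) and 4.95% between the IgG1 lists (4.76% and 5.14%). The 4 pairs across isotypes gave 3.75% to 5.19%. At 623 peaks per list the values were 7.38% for the IgM pair, 5.06% for the IgG1 pair and 5.30% to 7.06% across isotypes. Exact 95% Clopper-Pearson intervals at 623 peaks were 5.99% to 8.98% for the IgM pair and 3.91% to 6.42% for the IgG1 pair, which overlap with each other and cover counting error only.

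Most regions found in all 4 lists were found in every library of the series, KO libraries included. Of the 23, 20 had a peak in the other 8 lists too, and 18 of the 20 had no protein-coding gene within 50000 bp. The region of highest −log10 p in each of the 4 lists was the same one, chr2:98666585-98667302. Its −log10 p was 89221 and 55385 in the IgM lists and 37194 and 163582 in the IgG1 lists, at folds of only 2.22 and 1.87 for IgM and 1.72 and 2.88 for IgG1. The next on the −log10 p scale included 12 regions between 3000918 and 3038262 on chromosome 9, a stretch of 37345 bp that held 15 of the 89 recurring regions, and 2 regions at chr14:19416949-19418936. Folds in the chromosome 9 stretch were lowest in the first IgG1 list and highest in the second IgG1 list at all 12 regions, as at chr9:3023465-3025114 with 2.47 and 2.05 in the IgM lists and 1.84 and 3.45 in the IgG1 lists. The 2 IgG1 replicates thus lay on either side of both IgM replicates there. A pair of regions at chr17:39843025-39848711 had folds of 1.365 to 1.84, and the one from 39845453 overlaps the RefSeq entries AY036118, a long non-coding RNA, and Rn18s-rs5, a pseudogene of 18S ribosomal RNA. A region of 4597 bp at chr1:24611560-24616156, 24572 bp from Col19a1 (a collagen gene) and over 2 pseudogenes, had higher folds of 7.501 and 4.84 in the IgM lists and 5.13 and 8.79 in the IgG1 lists. The last regions of this kind lay inside Jarid2, a cofactor of Polycomb repressive complex 2 (folds 1.94 and 2.85 for IgM, 1.92 and 3.13 for IgG1), and at chr3:5860461-5860720, and were outside the rule for named regions.

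Lsm4 and Thg1l stood in all 4 lists with the highest mean folds of the 89 recurring regions and without a KO peak. Lsm4 encodes a subunit of the Sm-like ring on U6 snRNA. Its region, chr8:70673178-70673685, had its summit inside the gene, 374 bp from an annotated end, and folds of 15.99 and 11.03 in the IgM lists and 18.01 and 10.1 in the IgG1 lists. The region at Thg1l, chr11:45955214-45955529, had folds of 13.6 and 10.8 in the IgM lists and 19.2 and 8.56 in the IgG1 lists. At both genes the isotypes overlap, with the highest and the lowest fold both in an IgG1 list. In WT cells given IL-21, the Lsm4 region had folds of 103 and 66.7 in IgM lists and 59.55 and 56.7 in IgG1 lists, and the Thg1l region 117 and 62.4 in IgM lists and 60.1 and 63.3 in IgG1 lists. Each fold is relative to its own library's background. The remaining region in all 4 lists lay 356 bp from Kpnb1, the nuclear import receptor importin beta, and was named after its values were seen. Its folds were 4.07 and 2.92 in the IgM lists and 4.17 and 4.63 in the IgG1 lists, and it had a peak in both KO IgM lists (4.56 with IL-4 and 4.00 with IL-21) and neither KO IgG1 list.

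Regions in 3 of the 4 lists included Jak3, Batf and Jund, the 3 genes of the pathway lists with such a region. Jak3 encodes the kinase of the common gamma chain, which the IL-4 and IL-21 receptors share. Its region, chr8:71676145-71676511 and 14 bp from the gene, had folds of 6.50 and 3.99 in the IgM lists and 7.38 in the first IgG1 list. Batf encodes an AP-1 factor needed for class switching, and the region inside it, chr12:85705497-85706073, had 4.61 and 3.60 in the IgM lists and 4.00 in the first IgG1 list. Jund, a further AP-1 gene, had 6.41 in the second IgM list and 3.43 and 4.68 in the IgG1 lists (chr8:70698397-70700219). The library without a peak was therefore not always of the same isotype: of the 18 regions, 15 had both IgM lists and 3 both IgG1 lists, and 9 lacked the second IgG1 list alone.

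By −log10 p the 6 highest of the 18 lay at 3 positions with no protein-coding gene within 50000 bp (chr9:3014034-3014358, chr11:109011706-109012071 and chr6:3201018-3201555), in Filip1l, in Otud5 and 281 bp from Mex3c. Otud5 encodes a deubiquitinase, and its region (chrX:7865378-7866247) had folds of 11.2 and 5.48 in the IgM lists and 7.34 in the first IgG1 list. Mex3c, an RNA-binding ubiquitin ligase, had 5.71 and 8.39 in the IgM lists and 6.63 in the first IgG1 list, and a peak in the KO IgG1 list with IL-4 (fold 4.21). Filip1l had folds near 2 in its 3 lists (2.31 and 2.01 in the IgM lists, 2.00 in the second IgG1 list) and a peak in every KO list.

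Of the 18 regions, 8 had peaks in every WT IL-21 list and in no KO list, a set singled out after its values were seen: Otud5, Jak3, Crebrf, Lmna (nuclear lamins A and C), Slc39a1 (a zinc transporter), Jund, Ubb (ubiquitin) and Batf. Slc39a1 had 6.28 and 6.33 in the IgM lists and 6.30 in the first IgG1 list. With IL-21 it had 95.4 and 40.5 in IgM lists and 48.6 and 47.1 in IgG1 lists. Lmna had 10.9 and 3.82 in the IgM lists and 6.93 in the first IgG1 list, and 43.4 and 19.65 in IgM lists and 21.6 and 28.8 in IgG1 lists under IL-21. The second IgG1 list with IL-4 had no peak at either gene.

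The 19 regions of both IgM lists and neither IgG1 list all lay within 1000 bp of an end of a protein-coding gene, but were not confined to IgM cells elsewhere in the series. By −log10 p the 10 highest were Icam1, Klhl36, Avl9 (secretory traffic), Sec23a (a coat protein of vesicles leaving the endoplasmic reticulum), Fam210b, Prrc1, Id3 (an inhibitor of E protein transcription factors), Gpr155, Stat3 itself and Paqr3 (a Golgi protein that binds Raf). Icam1 led them, with folds of 7.92 and 5.43 in the IgM lists and no peak in the IgG1 lists (chr9:21015228-21016263, 185 bp from the gene). In WT cells given IL-21 the same region had a peak in both isotypes, with folds of 31.1 and 27.7 in IgM lists and 10.5 and 24.65 in IgG1 lists. The Stat3 region, chr11:100939592-100940074 and 384 bp from the gene, had 3.57 and 4.70 in the IgM lists under IL-4, and under IL-21 23.45 and 11.35 in IgM lists and 8.55 and 12.6 in IgG1 lists. Neither gene had a KO peak.

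Junb, an AP-1 gene, had folds of 4.62 and 4.22 in the IgM lists with IL-4. Under IL-21 it had 10.2 and 6.36 in IgM lists and 6.004 in the second IgG1 list, with no KO peak. Id3 had 4.93 and 5.34 in the IgM lists with IL-4, no peak in either IgM list with IL-21, and 5.14 and 5.94 in the IgG1 lists with IL-21. It also had a fold of 5.21 in the KO IgM list with IL-4. In WT cells the Id3 calls thus fell in IgM lists with IL-4 and in IgG1 lists with IL-21. Lists without a peak there may hold signal under the threshold, and a difference was not tested. Over the 19 regions, 14 had a peak in a WT IgG1 list with IL-21 and 11 in a WT IgM list with IL-21, and 16 had one in an IgG1 list of some other group.

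Of these 19 regions 13 had a KO peak, mostly in KO IgM cells with IL-4 (1 library). It had a peak at 10 of the 19 (52.6%, exact 95% interval 28.9 to 75.6) and the KO IgG1 library with IL-4 at 3 (15.8%, 3.38 to 39.6). Among regions of 1 IgM list within 1000 bp of a gene end, the KO IgM library had one at 41 of 358 (11.5%, 8.35 to 15.2) and the KO IgG1 library at 26 (7.26%, 4.80 to 10.5). At regions of 1 list of each isotype within 1000 bp of a gene end, the KO IgM library had one at 7 of 17 (41.2%, 18.4 to 67.1) and the KO IgG1 library at 5 (29.4%, 10.3 to 56.0). The intervals of these 17 and of the 19 regions overlap for both libraries. Klhl36 had folds of 4.23 and 4.45 in the WT IgM lists with IL-4, and 6.21 and 5.80 in the KO IgM and KO IgG1 lists with IL-4. Sec23a had 5.68 and 5.13 in the WT IgM lists and 5.88 in the KO IgM list with IL-4. The KO IgM list with IL-4 was also the one with most of its peaks near gene ends (35.4%, against 11.8% to 16.7% in the other 3 KO lists). With every region that has a KO peak left out, a choice made after the data were seen, 6 regions of both IgM lists only remained (Icam1, Stat3, Tmem266, Junb, Csgalnact2 and Mcmdc2) and 0 of both IgG1 lists only. With 623 peaks per list, 12 of the 19 still had both IgM lists, among them all 10 named by −log10 p. The cut used the same −log10 p as the naming, so it favoured those 10. Junb was left with 1 list and Csgalnact2 and Mcmdc2 with none.

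The 3 regions of both IgG1 lists and neither IgM list each had a KO peak with IL-4. They lay at chr12:97061443-97061785, with no gene within 50000 bp (folds 4.09 and 7.56), at H2ac19, a histone H2A gene (7.80 and 7.44), and in Myo3a, a myosin gene (6.002 and 4.27). All 3 were kept with 623 peaks per list. H2ac19 belongs to a run of 3 recurring regions in 7197 bp of chromosome 3 (96238667 to 96245863) with H3c15 and H2ac18. H2ac18 had folds of 6.03 and 4.43 in the IgM lists and 5.80 in the first IgG1 list, and H3c15 had 5.36 in the first IgM list and 4.00 in the first IgG1 list. Histone genes of the same type, such as H2ac18 and H2ac19, can be close copies. Whether fragments were placed at the right copy was not tested. H2ac19 had a peak in all 4 WT lists with IL-21, both isotypes included (7.40 and 6.30 in IgM lists, 6.30 and 6.69 in IgG1 lists).

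**Figure D2:**
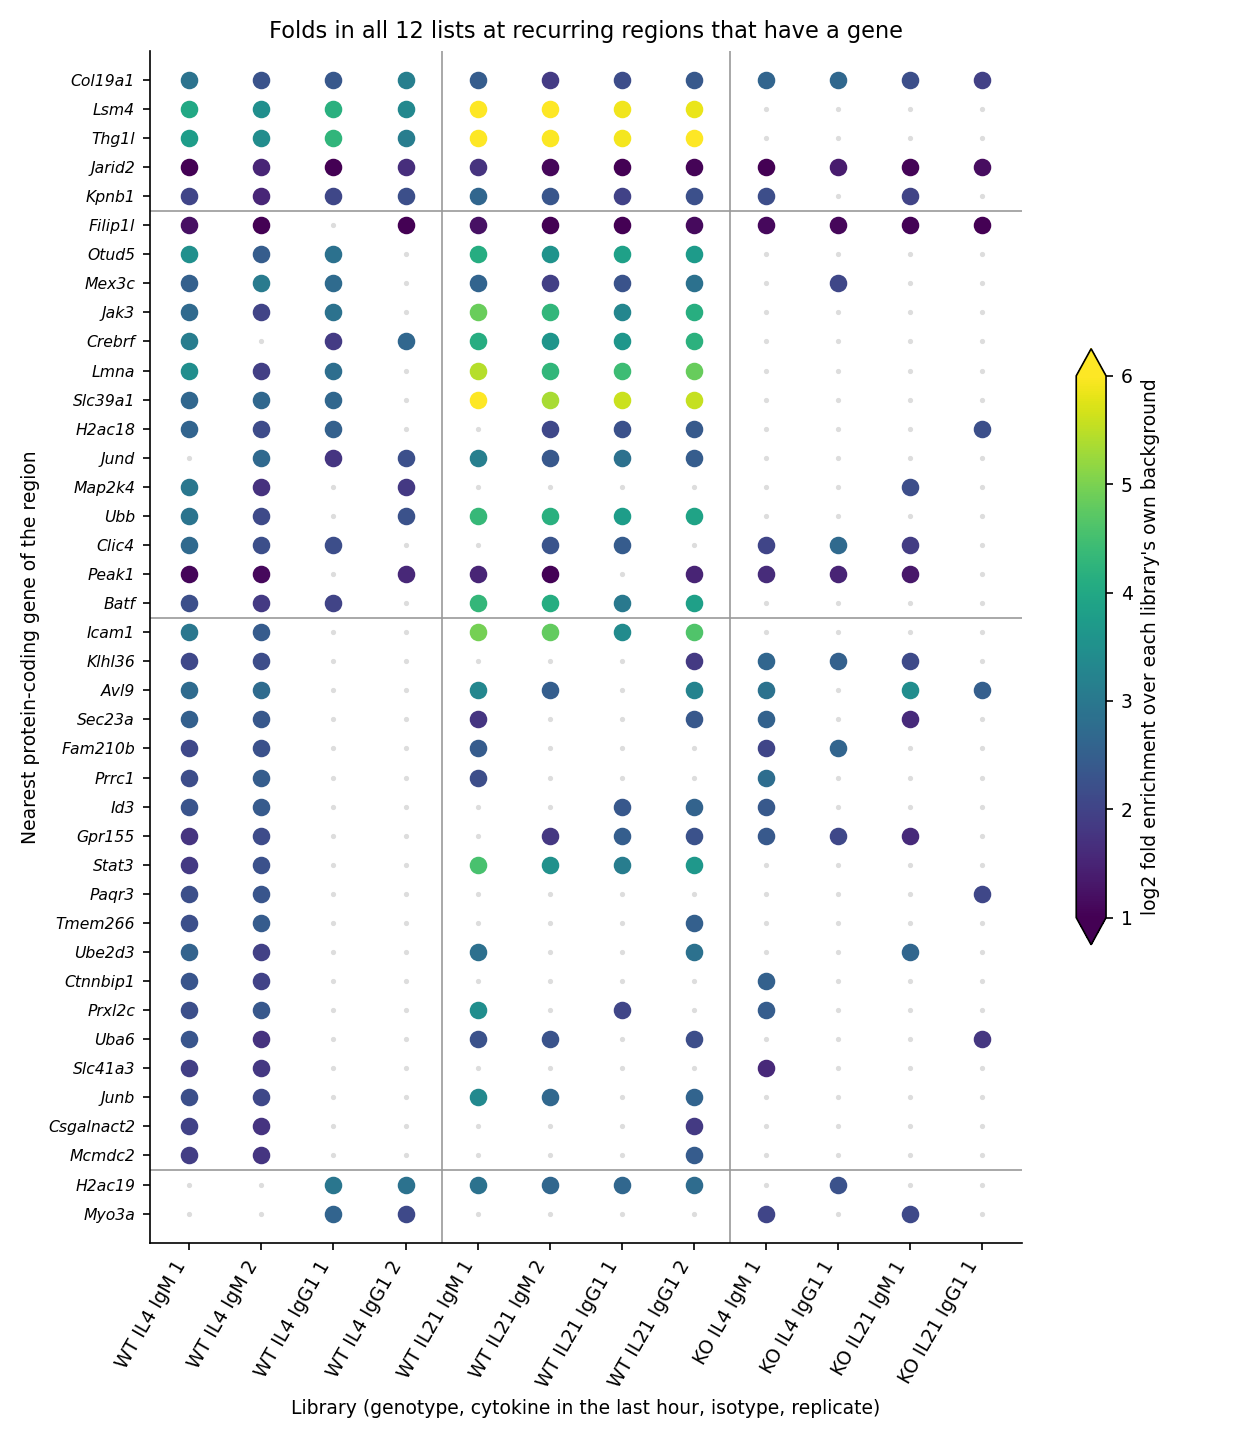
Fold enrichment at the recurring regions with a protein-coding gene within 50000 bp that were found in all 4 WT IL-4 lists, in 3, in both IgM lists only or in both IgG1 lists only (blocks from top to bottom). Columns are the 12 libraries, colour is log2 fold over each library's own background (values beyond 1 and 6 take the end colours), and a small grey dot means no peak. Lsm4 and Thg1l have a peak in all 8 WT lists and 0 KO lists, and Icam1 and Stat3 lack one only in the IgG1 lists with IL-4 among the WT lists.

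Regions with 1 list of each isotype, 26 in all, made up the largest recurring class, but this class pools 4 pairs of lists. Each of these pairs held fewer regions than the 19 of the IgM pair alone. They were 13 of the first IgM and first IgG1 lists, 7 of the first IgM and second IgG1 lists, and 3 of each pair with the second IgM list. Of the 26, 17 lay within 1000 bp of a gene end and 12 had no KO peak. Those with peaks in every WT IL-21 list and no KO peak, named after their values were seen, were Glt28d2, Gadd45b (a stress-induced signalling protein), Fastk and Cpsf7. Gadd45b had a fold of 5.04 in the first IgM list and 7.13 in the first IgG1 list, and Fastk 4.98 and 5.43 in the same lists. Glt28d2 had 6.60 in the first IgM list and 9.77 in the first IgG1 list. These genes had a peak in each isotype and lacked one in the second library of both. Mcm9 (a helicase), Tial1 and Zbtb9 were the 3 recurring regions of all 89 with no peak in any of the other 8 lists.

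Recurring regions were found in other lists far more often than regions of 1 list. A peak in a WT IL-21 list was found at 75 of the 89 (84.3%, exact 95% interval 75.0 to 91.1) and at 188 of 3331 regions of 1 list (5.64%, 4.88 to 6.48). A peak in a KO list was found at 61 of the 89 (68.5%, 57.8 to 78.0) and at 120 of the 3331 (3.60%, 3.00 to 4.29). Regions are not replicates, and these intervals cover counting error only. The KO libraries with IL-4 alone accounted for 56 of the 61. Of the 28 recurring regions without a KO peak, 25 had a peak in a WT IL-21 list, 16 of them in all 4, and 22 of the 28 (78.6%, 59.0 to 91.7) lay within 1000 bp of a gene end. Of the 61 with a KO peak, 27 (44.3%, 31.5 to 57.5) lay there and 26 had no gene within 50000 bp. All 28 without a KO peak had a gene within 50000 bp. Among regions with such a gene, 27 of the 35 with a KO peak lay near a gene end, against 22 of the 28 without. The lower share with a KO peak thus came from the 26 positions without a gene. The 28 without a KO peak comprised 2 of the regions in all 4 lists, 8 of those in 3, 6 of those in both IgM lists only, 0 of those in both IgG1 lists only and 12 of those with 1 list of each isotype.

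**Figure D3:**
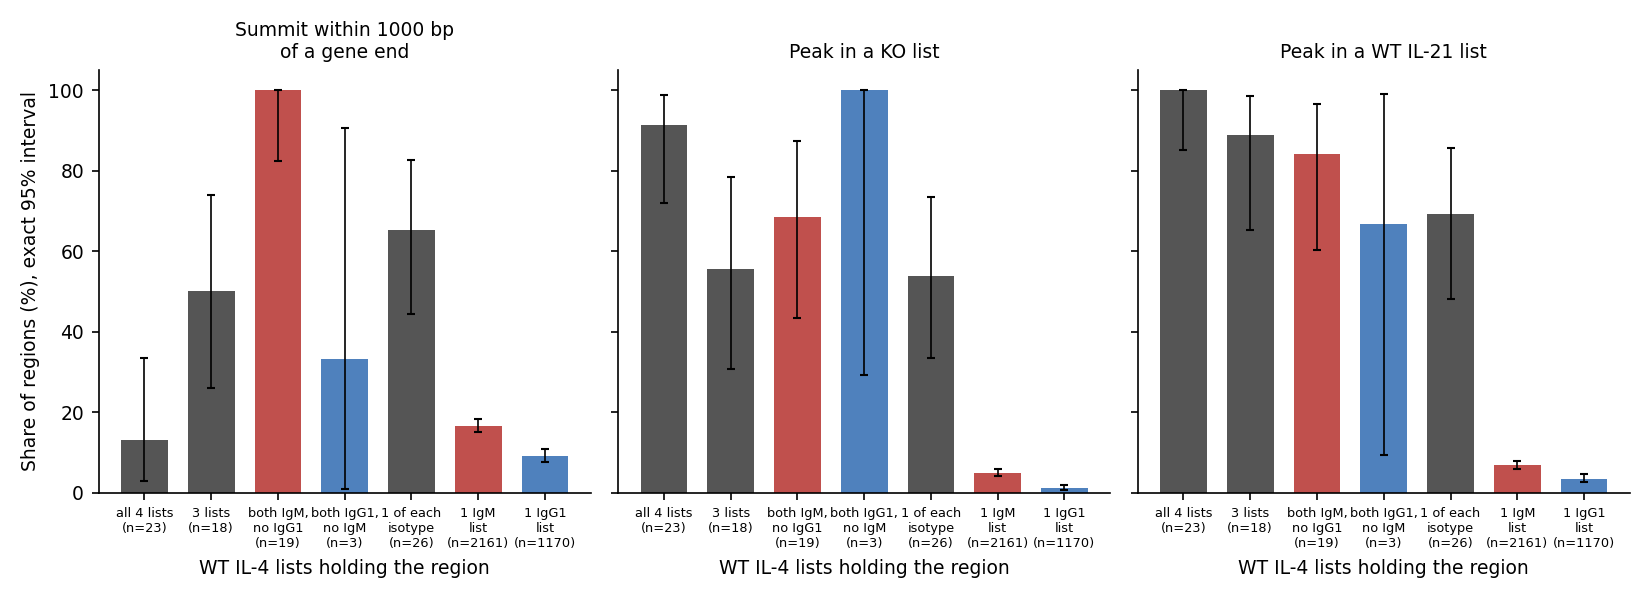
Share of regions (y axis, percent, with exact 95% intervals of counting error) whose summit lay within 1000 bp of a gene end (left), that had a peak in a KO list (middle) and that had a peak in a WT IL-21 list (right), by the WT IL-4 lists that held the region (x axis, n regions). The 19 regions of both IgM lists only lie at 100% in the left panel, and regions of 1 list stay low in all panels.

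Peaks of IgM cells lay near gene ends more often than those of IgG1 cells in these 4 libraries. Summits within 1000 bp of an end of a protein-coding gene made up 19.9% and 17.1% of peaks in the IgM lists and 14.0% and 8.35% in the IgG1 lists. The groups do not overlap and differ by 7.36 percentage points in the mean (exact permutation p = 0.333, the smallest possible). The second IgG1 list is the lowest by a wide step, and without it the difference was 4.55 points. Regions of 1 list only showed the same order, at 17.8% and 14.4% in the IgM lists and 11.4% and 6.78% in the IgG1 lists. At 623 peaks per list the difference was 12.04 points.

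Rank by −log10 p and rank by fold picked out different peaks. Of the 50 peaks of highest −log10 p in a list, 74% and 72% in the IgM lists and 62% and 56% in the IgG1 lists lay in a region of at least 2 lists. From rank 401 to 623 the shares were 2.69% and 1.35% in the IgM lists and 0.897% in each IgG1 list. Of the 50 peaks of highest fold, 30% and 14% in the IgM lists and 24% and 16% in the IgG1 lists recurred. The share rose again at the lowest folds. It was 5.41% at ranks 624 to 1455 and 16.5% at ranks 624 to 853 in the first and second IgM lists. In the first IgG1 list it was 85.7% at ranks 624 to 651, and in the second 13.45% at ranks 401 to 623. Over recurring regions, the median of the mean fold was 4.93 at the 28 without a KO peak and 3.75 at the 61 with one. The 61 include all 26 recurring regions with no gene within 50000 bp, whose own median was 2.10.

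**Figure D4:**
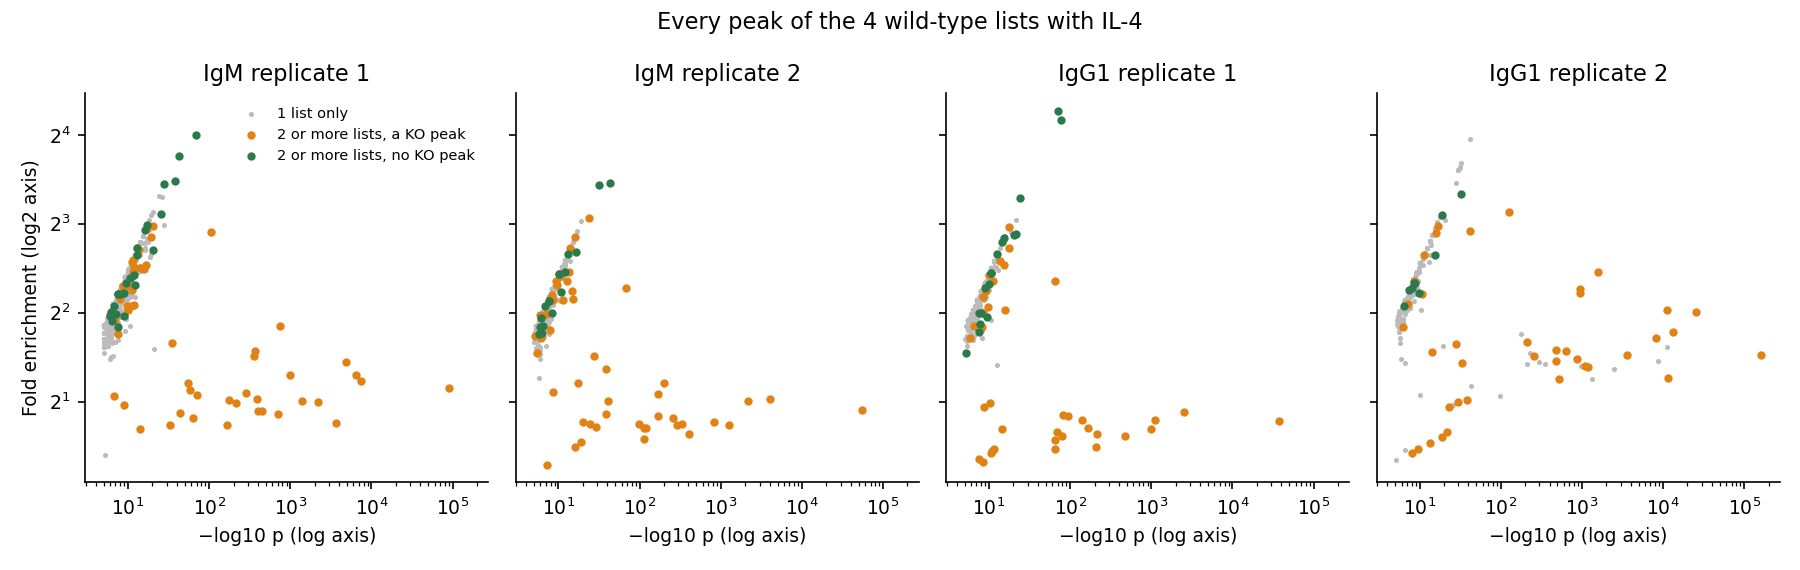
Fold enrichment (y axis, log2 spacing) against −log10 p (x axis, log spacing) for each peak of the 4 lists, IgM left and IgG1 right. Grey peaks are in 1 list, orange ones recur and have a KO peak, and green ones recur without one. Some orange peaks run along low folds up to a −log10 p of 163582. Other orange peaks lie with the green ones on the steep arm, as at a fold of 7.80 in the first IgG1 list. Green peaks reach a fold of 19.2 there.

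**Figure D5:**
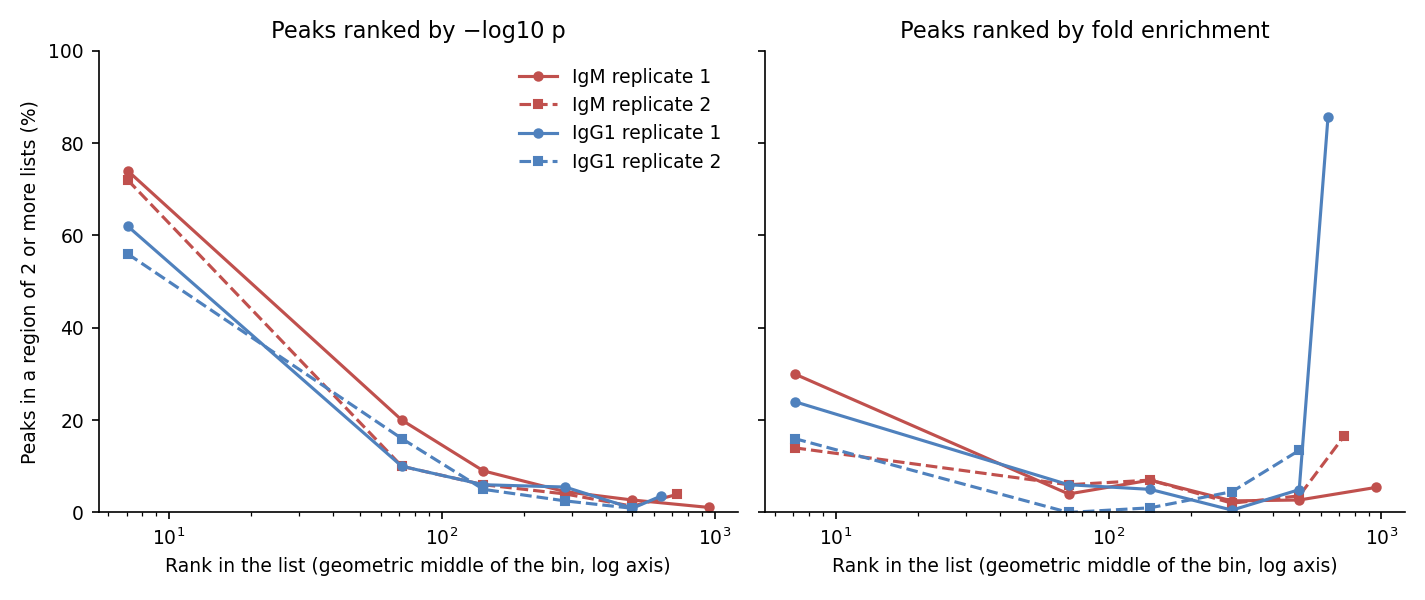
Share of peaks in a region of at least 2 lists (y axis, percent) by rank in the list (x axis, log spacing), with peaks ranked by −log10 p (left) or by fold (right), 1 line per library. Ranked by −log10 p all 4 lines start at 56% to 74%, and ranked by fold they start at 14% to 30%. Ranked by fold, each line rises again in its last bin, to 85.7% in the first IgG1 list.

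Of the pathways that act in these cells, few genes had a region in more than 1 list. The share was still above the 1.09% of all genes for some pathways, as with 2 of 30 JAK-STAT genes and 3 of 22 AP-1 genes. For others it was not, as with 0 of 25 survival and proliferation genes. The gene lists were chosen with earlier results of these data known. Genes with a region in 1 list are named after their values were seen. A region was given to the nearest protein-coding gene within 50000 bp. Of 21887 protein-coding genes, 2353 (10.8%) had a region in at least 1 of the 4 lists and 239 (1.09%) in at least 2. By isotype, 1637 (7.48%) had a region in an IgM list and 872 (3.98%) in an IgG1 list. Of 30 JAK-STAT genes, 6 had a region and 2 had one in at least 2 lists (Jak3 and Stat3). Stat5a (fold 4.43) and Stat5b (5.28), the neighbours of Stat3 on chromosome 11, had a region in the first IgM list only. Socs7 also had one in the first IgM list and Ptpn11, a phosphatase, in the first IgG1 list. Of 24 IL-4 and STAT6 responsive genes, 2 had a region, Ciita (the master regulator of MHC class II) in 1 list and Batf in 3.

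Of 23 class switch genes in the gene table (of 24 listed), 2 had a region, Batf and Xrcc6, a DNA end-joining subunit. Over all protein-coding genes 10.8% had one in at least 1 list. The 12 immunoglobulin constant genes listed are not entered as protein-coding there and could not be given a region. Of 33 B cell and germinal centre genes, 6 had a region and 3 had one in at least 2 lists, Ebf1, Bach2 and Id3. Ebf1 and Bach2, both B cell transcription factors, each had 1 region in the first IgM list and a different one in the second IgG1 list, so no position recurred. Of 21 plasma cell genes, 4 had a region (Batf, Jund, Slamf7 and Prdm1, the last in the first IgG1 list at a fold of 4.73). Of 25 survival and proliferation genes, 8 had a region and 0 had one in at least 2 lists. Among them were Mcl1 (3.46), an anti-apoptotic gene, in the first IgM list, and Bcl2 (4.83) in the second IgM list.

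Of 27 CD40 and NF-kappaB genes, 5 had a region, Icam1 in both IgM lists and Traf3, Nfkbiz, Tnfaip3 and Tnip1 in 1 IgM list each. Of the 27, 5 had a region in an IgM list, against 7.48% of all genes, and 0 in an IgG1 list, against 3.98% of all genes. For 27 genes a count of 0 is near the 3.98%, so no difference between isotypes can be read from it. Of 22 AP-1 and immediate early genes, 9 had a region (40.9%) and 3 had one in at least 2 lists, Junb, Jund and Batf. The others were Maff, Egr3, Ier2, Dusp1, Btg1 and Btg2, in 1 list each. Maff had a fold of 7.35 in the second IgG1 list and Ier2 5.73 in the second IgM list. Of the 22, 5 had a region in an IgM list, against 7.48% of all genes, and 6 in an IgG1 list, against 3.98% of all genes. Among lists for other cells, 1 of 14 myeloid genes (Itgam), 0 of 15 T and NK cell genes and 1 of 11 erythroid and platelet genes (Itga2b) had a region, those of Itgam and Itga2b each in 1 IgM list. Of 15 housekeeping genes, 0 had a region. Over all genes 10.8% had one in at least 1 list, and lists of 11 to 15 genes are too short to tell 0 or 1 from that share.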

How the data were processed

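Anti-STAT3 CUT&RUN libraries were made from sorted mouse B cells. The submitters' processing notes name mm10, MACS2 2.2.7.1, Bowtie2 2.4.1, deepTools 3.5.1 and Trimmomatic 0.39 without their roles, and no control for peak calling is given in the sources used here. In each list the deposited fold enrichment (a ratio), −log10 of p and of q, and score are the authors' values and served to describe, order or filter peaks within it. Of the peaks in the 4 lists, 3582 were used and 129 on other sequences were left out. Regions took the nearest of 21887 protein-coding gene spans (RefSeq, GRCm38.p6). Merging was tested on simulated data. Shares have exact Clopper-Pearson intervals, and libraries were compared by two-sided exact permutation tests (Python 3.11.15, scipy 1.17.1). Named regions are the 20 highest by mean −log10 p in all 4 lists, the 10 highest of each isotype alone, the 6 highest in 3 lists, the highest of each list and listed genes in at least 2 lists. Other names are marked. Members and gene lists were chosen with earlier results of these data known. Alternatives were equal list lengths, stricter thresholds, other overlap rules, and leaving out KO regions or single libraries. The input sample was not analysed here.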

Additional observations from a re-analysis of the deposited data

How the results depend on the processing

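Of 97 alternative values 0 reversed in sign, which only the tested differences could do, since counts and overlaps have no sign. The order of the counts for 1 isotype only, 19 for IgM and 3 for IgG1, did change in some alternatives. Without the first IgG1 list, which leaves IgG1 with 1 list, they were 28 and 580. Counts of regions are taken as moved past 1.5 times, overlaps past their interval, and tested differences when their side of the threshold changes, by which 30 moved and 67 did not. Since neither tested difference can pass the threshold, that says nothing of their stability. The difference in list length (0.81, log2) was 0.18 with a fold of at least 5 and 0.56 with a −log10 q of at least 5, and the difference near gene ends (7.36 points) was 12.04 with 623 peaks per list. Regions of both IgM lists only (19) fell to 12 with 623 peaks per list (11 with the tied peaks at the last value all left out, an alternative added after seeing the data), 5 with a −log10 q of at least 5 and 5 with 300 peaks per list (added after seeing the data). The regions in both IgM lists (57) fell to 33 with a −log10 q of at least 5 and to 34 with 300 peaks. Leaving out regions with a KO IL-4 peak gave 2 regions in all 4 lists, 9 and 0 for both IgM and both IgG1 lists only, and 19 and 4 in both IgM and both IgG1 lists. Leaving out regions with any KO peak (added after seeing the data) gave 2, 6, 0, 14 and 4 in that order. Leaving out regions with no gene within 50000 bp (also added) gave 5 in all 4 lists, 36 in both IgM lists and 9 in both IgG1 lists. The overlap of the IgM lists moved to 7.38% and the mean across isotypes, 4.51%, to 5.94% with 623 peaks per list. Leaving out a library leaves its isotype with 1 list, and the counts then ran from 25 to 1395 for both IgM lists only, from 4 to 598 for both IgG1 lists only, from 57 to 1453 in both IgM lists, from 29 to 649 in both IgG1 lists and from 24 to 32 in all lists kept. The difference in list length ran from 0.42 to 1.19 (log2) and that in the share near gene ends from 4.55 to 10.2 points. With the replicate number as a block the differences were 0.81 and 7.36 at an exact permutation p of 0.5, the smallest possible. The labels do not tie a replicate number to a shared animal or day. The deviations of same-numbered libraries correlated at 0.14 over the 89 recurring regions, and at 0.00056 over all 3420, most of which are in 1 list. A design with 2 numbers cannot settle whether they pair the libraries. The lists carry no depth, 2 libraries per isotype cannot pass a test at 0.05, and a region without a peak may hold signal under the threshold.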

Other observations

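The second IgG1 library with IL-4 held 7 peaks with a fold of at least 10 that none of the other 11 lists had, whereas the other 3 WT libraries with IL-4 held 0 such peaks. These peaks were picked out once the values were known. Among them was chr10:92387992-92388421 at a fold of 12.9, with no gene within 50000 bp. A pair at chr9:32355142-32356361 had folds of 12.4 and 12.5 and lay 10955 and 11745 bp from Kcnj5, a potassium channel gene. Another, with a fold of 12.1, lay 31521 bp from Kif6, a kinesin gene.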
